A study of Mus musculus with 6 samples.

Results

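The interferon receptors Ifngr1, Ifngr2, Ifnar1 and Ifnar2 and the signalling factors Stat2, Irf1, Irf2, Irf7 and Irf9 were examined in mouse embryonic stem cells sorted for a retroviral reporter. The 9 genes were chosen by name. Of them, 8 had a row among the 17110 genes of the authors' deposited comparison table and, by gene identifier, in the count table, and Irf7 was not analysed here. Irf1, Irf2 and Ifngr1 had negative fold changes that passed an adjusted p-value of 0.05 in the authors' deposited table, and none of the 8 genes had a positive fold change that passed. The receptor chains Ifngr2, Ifnar1 and Ifnar2 and the factors Stat2 and Irf9 did not pass in the authors' deposited table.

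The cells were of the line named TG2A and carried the genotype written MERVL::Fluorescent protein, which every sample shared. MERVL is an endogenous retrovirus of the mouse switched on in the early embryo and now and then in single cells of stem cell cultures, and cells that express it are often called 2-cell-like. Cells were grown with serum and leukemia inhibitory factor and separated by fluorescence-activated cell sorting into a DsRed2+ and a DsRed2- group of 3 samples each, collected on different dates per the labels. The series concerns division in the 2-cell-like state, and the design implies a single comparison, between the sorted groups.

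The values below are those of that comparison as the authors made it. The authors' deposited table gives each gene a mean normalized count over all libraries, a log2 fold change with its standard error (SE), and a p-value adjusted over the genes. It names neither the compared groups nor the group that serves as numerator, so a fold change is called positive or negative as deposited, and no direction from DsRed2- to DsRed2+ is stated. No other groups are in the labels, so the table was read as the comparison of these groups, which the table itself does not state. The 6 columns of the count table match no sample label and were not used. Values per sample, depth per library and overlap between the groups are therefore not given. In bulk samples such as these, fewer cells that express a gene and less RNA of that gene per cell cannot be told apart.

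Interferons reach the nucleus through a short relay. Type I interferons bind the chains Ifnar1 and Ifnar2, and interferon gamma binds Ifngr1, the ligand-binding chain, together with Ifngr2. Janus kinases attached to these chains phosphorylate Stat factors. A complex that holds Stat2 and Irf9 then binds interferon-stimulated response elements, while Stat dimers bind gamma-activated sites. Irf1 is itself a target of this relay and activates further genes, and Irf2 is best known as its antagonist on shared sites. Pluripotent stem cells are known for a weak response to interferon compared with differentiated cells.

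Across the authors' deposited table, 30.5% of genes passed an adjusted p-value of 0.05, with 15.9% negative and 14.6% positive. Among the 8 genes with a row, 3 passed, or 37.5%, and all 3 of these were negative. A share of 3 in 8 lies near the 30.5% of all genes, and with 8 genes it is no result about them as a set. The negative share, also 3 in 8, stands beside 15.9% and rests on the 3 genes alone. The median log2 fold change of the 8 genes was -0.40 in the authors' deposited table, against 0.0097 for all genes. Individual fold changes ran from -3.93 for Irf2 to 0.57 for Stat2, with 6 genes negative and 2 positive.

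**Figure D1:**
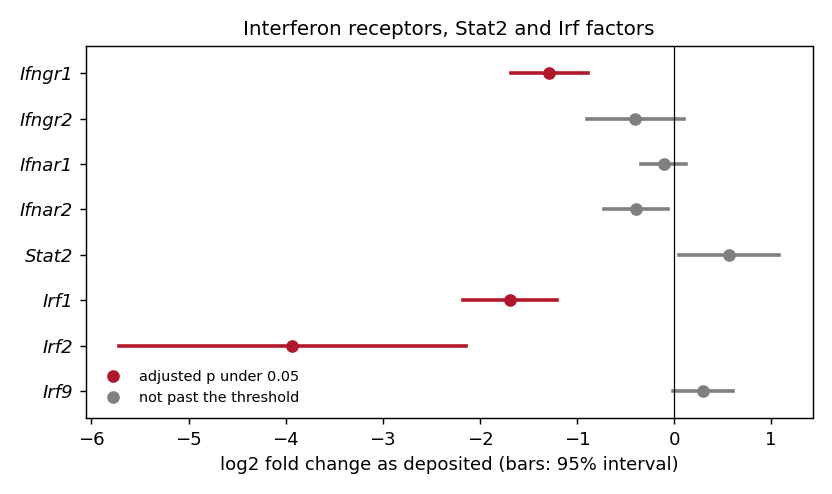
Log2 fold change of each of the 8 genes as deposited (points), with bars for the 95% interval computed from the deposited standard error. Ifngr1, Irf1 and Irf2 (red) passed an adjusted p-value of 0.05 and have bars that lie below -0.89, while the bars of Ifngr2, Ifnar1 and Irf9 include 0.

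Among the receptors, Ifngr1 (ENSMUSG00000020009) was the chain that passed. In the authors' deposited table its mean normalized count was 148.5 and its log2 fold change -1.29 (SE 0.20, DESeq2 adjusted p-value 3.22e-09). The 95% interval computed from that standard error was -1.68 to -0.89, a ratio of 0.410 between the groups (0.312 to 0.539). This fold change stood at the 6.97 percentile of all genes of the authors' deposited table.

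Ifngr2 (ENSMUSG00000022965), the signalling partner of Ifngr1, had a similar mean count of 123.0 in the authors' deposited table. Its log2 fold change there was -0.40 (SE 0.25, DESeq2 adjusted p-value 0.245). The interval of -0.89 to 0.098 includes both no difference and a ratio as low as 0.538. Whether the 2 chains of the interferon gamma receptor differ in fold change was not tested, since they were measured in the same libraries and values per sample are lacking.

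Neither chain of the type I receptor passed. Ifnar1 (ENSMUSG00000022967), at a mean count of 1232.2 in the authors' deposited table, had a log2 fold change of -0.11 (SE 0.12, DESeq2 adjusted p-value 0.553). Its interval of -0.34 to 0.13 bounds the ratio between 0.789 and 1.09, the narrowest interval among the 8 genes on the log2 scale. Ifnar2 (ENSMUSG00000022971), with a mean count of 213.1 in the authors' deposited table, had a log2 fold change of -0.39 (SE 0.17, DESeq2 adjusted p-value 0.0577, unadjusted 0.0181). Ifnar2 passed, at -0.49 with an adjusted p-value of 0.0139, when the median of the ribosomal protein genes, 0.093, was subtracted from every log2 fold change.

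Related receptors were described beside these because interferon lambda and the interleukin 10 family use chains of the same class. Of 13 listed receptors and ligands, 3 had a row, and the others, among them the ligands Ifnb1 and Ifng, were not analysed here. Ifnlr1, the ligand-specific chain of the interferon lambda receptor, had in the authors' deposited table a positive log2 fold change of 1.22 (SE 0.33, DESeq2 adjusted p-value 0.00138). Il10rb, the chain that the interferon lambda and interleukin 10 receptors share, stood at -2.54 in the authors' deposited table (SE 0.60, DESeq2 adjusted p-value 0.000184), on a mean count of only 17.2. The chains needed for a lambda receptor thus carried fold changes of opposite sign in the authors' deposited table.

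Stat2 and Irf9, factors of the type I complex, did not pass. Stat2 (ENSMUSG00000040033), with a mean count of 741.8 in the authors' deposited table, had a log2 fold change of 0.57 (SE 0.26, DESeq2 adjusted p-value 0.093, unadjusted 0.0327). Its interval of 0.047 to 1.09 spans ratios from 1.03 to 2.12. Irf9 (ENSMUSG00000002325), the DNA-binding part of the complex, stood at 0.30 in the authors' deposited table on a mean count of 211.9 (SE 0.16, DESeq2 adjusted p-value 0.141). Irf9 overlaps the gene Rnf31 on the same strand in GENCODE M21, and the authors' deposited table puts Rnf31 at 0.098, so reads at the overlap could be split between them.

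Irf1 (ENSMUSG00000018899), a transcriptional activator, had the smallest p-value of the 8 genes. In the authors' deposited table its mean count was 1442.4, the highest of the 8, and its log2 fold change was -1.69 (SE 0.25, DESeq2 adjusted p-value 2.08e-10). The interval of -2.17 to -1.20 is a ratio of 0.311 between the groups (0.222 to 0.435), and the fold change stood at the 4.75 percentile of all genes. Gm17334, which overlaps Irf1 on the opposite strand in GENCODE M21, was negative too, at -2.54 (SE 0.60) and a mean count of 18.6 in the authors' deposited table. Use of strand in the counting is not given in the sources used here, so reads of this pair cannot be assigned with certainty, though the mean count of Irf1 was far above that of Gm17334.

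Irf2 (ENSMUSG00000031627), the antagonist of Irf1, had the most negative fold change of the 8 genes and the least precise one. In the authors' deposited table its mean count was 13.8, the lowest of the 8, and its log2 fold change was -3.93 (SE 0.91, DESeq2 adjusted p-value 0.000125). The interval of -5.72 to -2.14 covers ratios from 0.0190 to 0.226. Of the 1500 genes of the authors' deposited table with a mean count from 10 to 20, 19.1% passed the threshold, and their median standard error was 0.64. The counts of single libraries were not used here, so whether 1 library sets this value was not tested. Under a minimum mean count of 50, Irf2 left the table and 2 of 7 genes remained past the threshold.

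**Figure D2:**
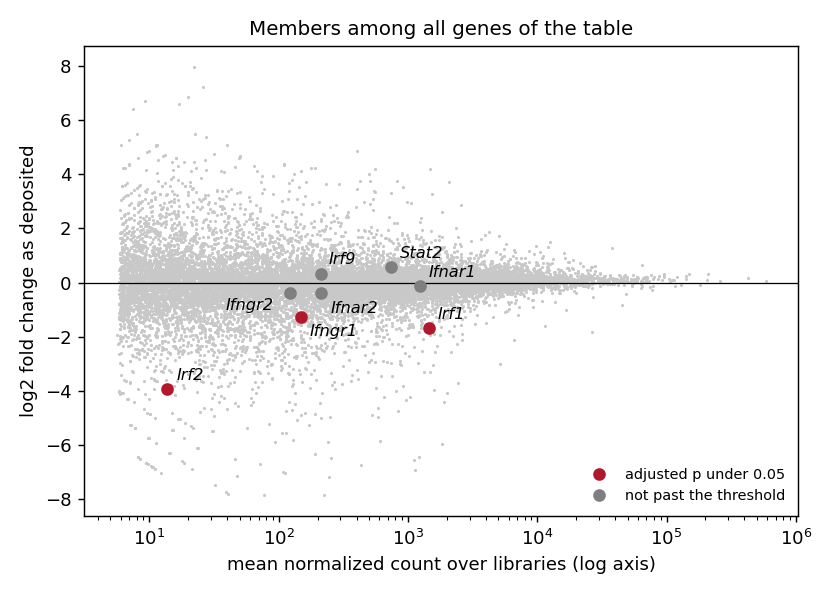
Mean normalized count over libraries (log axis) against log2 fold change, both as deposited, for all 17110 genes (grey dots) and the 8 interferon genes (large points, red where the adjusted p-value was under 0.05). Irf1 at 1442.4 and Ifnar1 at 1232.2 have close mean counts but log2 fold changes of -1.69 and -0.11, and Irf2 lies at the far left with 13.8.

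Levels were compared between genes per length, as the mean normalized count of the authors' deposited table divided by the length of the longest transcript in GENCODE M21. Irf1 was highest at 675.0 counts per kilobase, followed by Ifnar1 at 315.2 and Stat2 at 168.7, all above the median of 132.4 over the 16795 genes with a length. Ifngr1 at 70.3 and Ifnar2 at 69.9 followed, then Irf9 at 54.8, Ifngr2 at 33.2 and Irf2 at 3.47 counts per kilobase. These are pooled means with no spread over samples, so the order of close neighbours such as Ifngr1 and Ifnar2 is not established. The deposited counts may also rest on other transcript lengths than the longest.

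Promoter sequences are shown for the genes that passed, Irf1, Irf2 and Ifngr1, and for Stat2 as the factor with the largest positive fold change. Each run is the 250 bases before a RefSeq start site, in build GRCm38.p6, on the plus strand. Capitals mark matches to TTCNNNGAA, the letters of a gamma-activated site, to its wider form with 4 in place of 3 bases between TTC and GAA, and to the core of an interferon-stimulated response element, GAAA and GAAA with 2 bases of any kind between them, on either strand.
Irf1, chr11:53769764-53770013: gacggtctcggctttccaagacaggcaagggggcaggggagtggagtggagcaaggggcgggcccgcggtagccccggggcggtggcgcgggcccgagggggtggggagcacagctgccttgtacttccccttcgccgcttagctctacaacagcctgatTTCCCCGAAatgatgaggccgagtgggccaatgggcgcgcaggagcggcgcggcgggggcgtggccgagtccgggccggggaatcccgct
Irf2, chr8:46739495-46739744: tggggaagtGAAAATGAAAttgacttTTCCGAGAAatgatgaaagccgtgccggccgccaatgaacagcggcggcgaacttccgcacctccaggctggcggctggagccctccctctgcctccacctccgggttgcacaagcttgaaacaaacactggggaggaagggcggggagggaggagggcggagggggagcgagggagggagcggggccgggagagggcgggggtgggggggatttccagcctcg
Ifngr1, chr10:19591699-19591948: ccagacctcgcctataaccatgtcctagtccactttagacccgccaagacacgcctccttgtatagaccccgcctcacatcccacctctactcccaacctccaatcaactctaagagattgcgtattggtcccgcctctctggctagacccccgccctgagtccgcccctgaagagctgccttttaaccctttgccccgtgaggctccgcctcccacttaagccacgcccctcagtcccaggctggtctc
Stat2, chr10:128270248-128270497: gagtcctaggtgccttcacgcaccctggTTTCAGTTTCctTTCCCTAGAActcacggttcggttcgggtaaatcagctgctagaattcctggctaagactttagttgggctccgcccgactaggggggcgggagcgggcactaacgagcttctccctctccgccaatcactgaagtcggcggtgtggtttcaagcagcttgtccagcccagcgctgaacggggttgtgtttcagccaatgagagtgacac
In the Irf1 promoter the gamma-activated match TTCCCCGAA has its last base 82 bases before the start. The Irf2 promoter holds the response element core GAAAATGAAA, which ends 232 bases before the start, and the gamma-activated match TTCCGAGAA, which ends 216 bases before it. The Stat2 promoter holds TTTCAGTTTC, a response element core read on the opposite strand that ends 213 bases before the start, followed by the wider form TTCCCTAGAA, which ends 201 bases before it. The Ifngr1 window holds 0 matches to the 3 patterns.

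All 8 genes with a row had a RefSeq promoter window, 10 windows in all because Irf1 and Irf9 have a further start site. Over windows from 250 bases before to 50 after the start, TTCNNNGAA was present for 4 of the 8 genes, Irf1, Irf2, Ifnar1 and Ifnar2, against 8.30% of all 32851 windows. The wider form was present for Stat2, Irf9 and Ifngr2, against 6.95% of windows. The response element core was present for Stat2 and Irf2, against 3.44% of windows. Genes with a further start site had more windows in which to match. Matches to TTCNNNGAA occurred both in genes that passed, Irf1 and Irf2, and in Ifnar1 and Ifnar2, which did not pass in the authors' deposited table. A match is a description of letters and shows no binding.

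The Janus kinases, which carry the signal from the receptors to the Stat factors, all passed the threshold but in opposite directions. Over all genes 30.5% passed, and a family of 4 genes is too small for a statement about it as a set. Jak2, which works with Ifngr2 at the interferon gamma receptor, stood at -1.64 in the authors' deposited table (SE 0.26, DESeq2 adjusted p-value 6.99e-09). Jak1, which serves both receptor types, was at -0.29 in the authors' deposited table (SE 0.097, DESeq2 adjusted p-value 0.0113). Tyk2, the kinase of Ifnar1, was positive at 0.56 in the authors' deposited table (SE 0.092, DESeq2 adjusted p-value 1.83e-08). Jak3, used by cytokine receptors with the common gamma chain, stood at 0.33 in the authors' deposited table (SE 0.13, DESeq2 adjusted p-value 0.0366). The calls of Jak1 and Jak3 were lost at an adjusted p-value of 0.01 and at a fold limit of 0.5, and that of Jak3 also after ribosomal centring.

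Of the 6 Stat genes examined, 3 passed in the authors' deposited table, with Stat3 and Stat6 positive and Stat5b negative. Over all genes 30.5% passed, and with 6 genes this count is no result about the family. Stat3, the effector of leukemia inhibitory factor in these cells, stood at 0.43 in the authors' deposited table (SE 0.095, DESeq2 adjusted p-value 3.79e-05). Stat6, which acts downstream of interleukin 4, was at 0.70 (SE 0.18), and Stat5b, a mediator of growth hormone signalling, at -1.06 (SE 0.28) in the authors' deposited table. Stat4, at 0.28, and Stat5a, at -0.61 (SE 0.50), did not pass there.

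In the Irf family and its binding proteins, 3 of 9 genes examined passed in the authors' deposited table, 2 of them being Irf1 and Irf2. This share of 33.3% lies near the 30.5% of all genes and is no result about the family. The third gene that passed was Irf2bpl, which encodes a relative of the Irf2-binding proteins, at 0.58 (SE 0.11, DESeq2 adjusted p-value 1.73e-06). Irf3, which is activated by sensors of viral nucleic acid, was at -0.018 (SE 0.11) in the authors' deposited table, on a mean count of 630.0. Irf8, best known from myeloid cells, was at -0.97 (SE 0.44, DESeq2 adjusted p-value 0.0851) in the authors' deposited table. Irf5, Irf2bp1 and Irf2bp2 did not pass and stood at 0.65, -0.059 and -0.15 in the authors' deposited table. Irf4 was not analysed here.

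**Figure D3:**
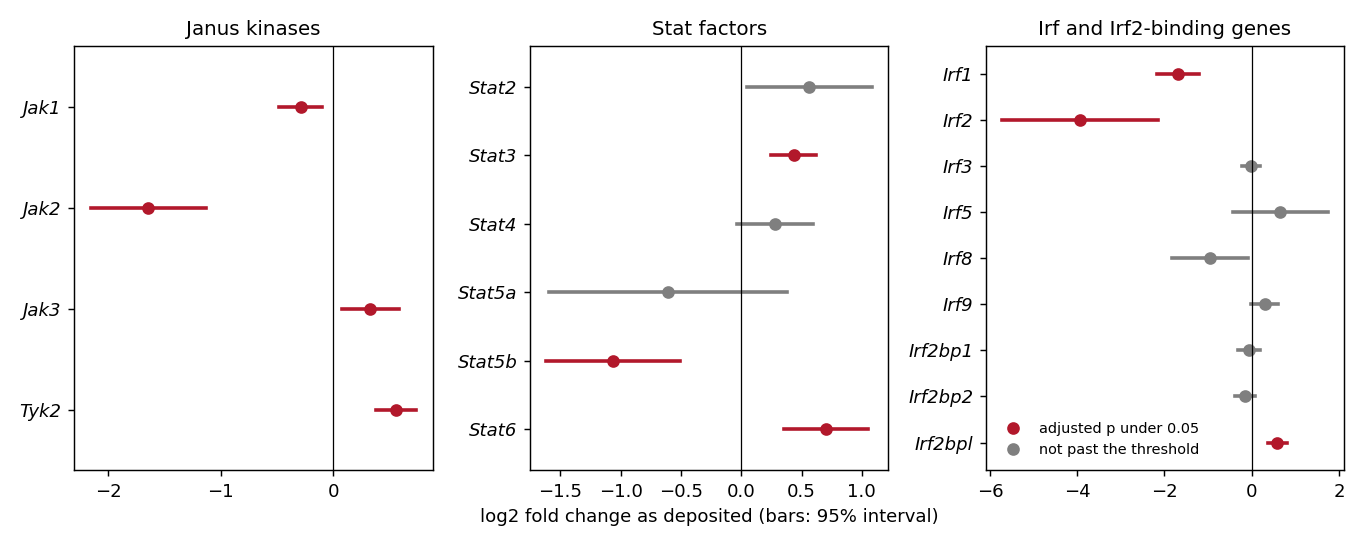
Log2 fold change as deposited (points) with the 95% interval (bars) for the Janus kinases, the Stat genes and the Irf genes with their binding proteins, each panel on its own axis. Jak2 at -1.64, Stat5b at -1.06, Irf1 at -1.69 and Irf2 at -3.93 passed on the negative side (red), while Tyk2 at 0.56, Stat6 at 0.70 and Irf2bpl at 0.58 passed on the positive side.

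In the authors' deposited table, 5 of 16 genes listed as negative regulators passed on the negative side and 3 on the positive side. The 16 are those with a row, and their median log2 fold change was -0.060. The negative share of 31.25% stands beside 15.9% of all genes. The positive share of 18.75% lies near the 14.6% of all genes. Socs1, an inhibitor of Janus kinases that interferon gamma itself induces, was at -1.35 in the authors' deposited table (SE 0.42, DESeq2 adjusted p-value 0.00644). Isg15, which encodes a ubiquitin-like protein and is also a type I target, was at -7.83 (SE 1.15), and the glucocorticoid receptor gene Nr3c1 at -0.63 (SE 0.16) in the authors' deposited table. Isg15 counts among the 5 negative calls, and whether it acts as a regulator in these cells was not examined. Ptpn11, a phosphatase, was at -0.40 (SE 0.11) in the authors' deposited table. Pias2 and Pias4, from a family of inhibitors of activated Stat factors, were positive at 0.57 and 0.35, with SE of 0.072 and 0.11 in the authors' deposited table.

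Downstream of the receptors, the listed interferon gamma targets were negative throughout. All 22 of these genes with a row passed on the negative side in the authors' deposited table, against a background of 15.9%, with a median log2 fold change of -2.32 and a range of -7.04 to -0.52. The other 4 of the 26 listed genes were not analysed here. The 6 with the smallest p-values were Gbp2, Psmb8, Tap2, H2-K1, Gbp7 and Tap1. Gbp2, a guanylate-binding protein gene, was at -6.43 (SE 0.56), and the immunoproteasome subunit gene Psmb8 at -6.73 (SE 0.64) in the authors' deposited table. The peptide transporter genes Tap1 and Tap2 were at -2.01 and -4.83 with SE of 0.24 and 0.46, and the class I heavy chain gene H2-K1 at -1.67 (SE 0.19) in the authors' deposited table. The list shares Socs1 with the negative regulators and was drawn up with results on related genes known, so its direction is not independent evidence. The Gbp and H2 genes have close copies, so their reads could be divided among them.

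The type I targets did not move in a single direction. Of 22 genes with a row, 9 passed on the negative side and 5 on the positive side in the authors' deposited table. These shares of 40.9% and 22.7% stand beside 15.9% and 14.6% of all genes. The median log2 fold change of the 22 genes was -0.42, while the other 8 of 30 listed genes were not analysed here. Besides Isg15, negative genes included Oasl2 at -5.06 (SE 0.54), the RNA sensor gene Ifih1 at -7.78 (SE 1.35) and the nucleic acid sensor gene Zbp1 at -2.45 (SE 0.48) in the authors' deposited table. Oas1a and Oas2, which encode synthetases of 2-5A, an activator of RNA decay, were positive at 1.67 and 2.54, with SE of 0.28 and 0.35 in the authors' deposited table. The remaining positive calls there were Oas3 at 1.46 (SE 0.42), Oasl1 at 2.86 (SE 1.03) and Trim25 at 0.51 (SE 0.11). All positive calls but Trim25 thus belong to the Oas and Oasl family, as does the negative Oasl2. The positive share therefore rests mostly on a single gene family. Under a minimum mean count of 50 the negative calls in this list dropped from 9 to 4 and its median moved to 0.059 over 15 genes. Whether genes with the most negative values had counts near 0 in a group was not examined, so these fold changes are the authors' fitted values and depend on their fit. Whether the gamma and type I targets differ was not tested.

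**Figure D4:**
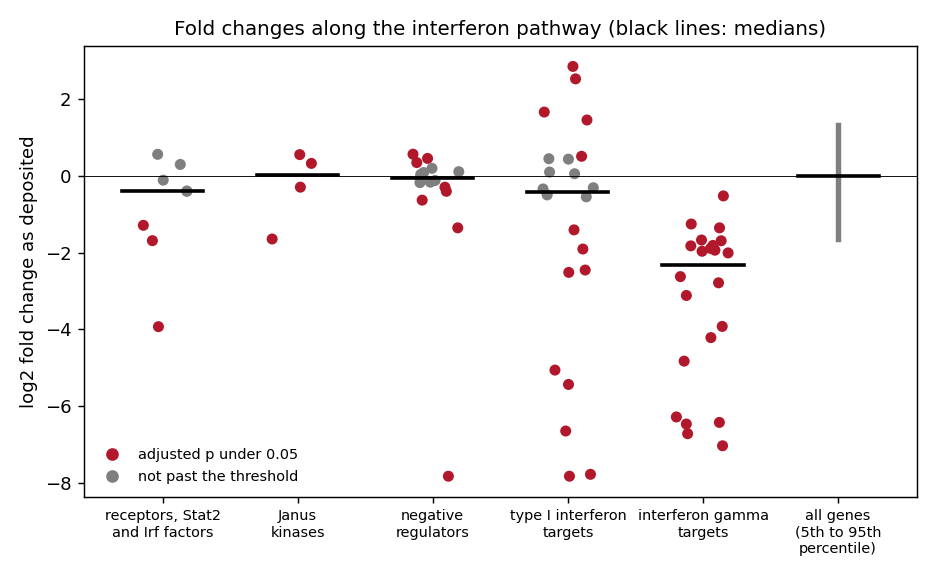
Log2 fold change as deposited for each gene (points, red where the adjusted p-value was under 0.05) in 5 lists of the interferon pathway, with black lines at the medians and, at the right, a bar from the 5th to the 95th percentile of all genes (-1.63 to 1.33). All 22 interferon gamma targets lie below 0, while the receptors and factors, the kinases, the regulators and the type I targets lie on both sides.

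The genes beside the members other than Irf2 along the chromosome were described after the values were seen, as the 5 nearest genes with a row on either side in the RefSeq order of GRCm38. Ifnar2, Il10rb, Ifnar1 and Ifngr2 follow each other on chromosome 16. Among the 10 neighbours of Ifnar1, which include the other genes of this cluster, Il10rb alone passed in the authors' deposited table, and the median log2 fold change was -0.28. Over all genes, 15.9% passed on the negative side and 14.6% on the positive side. Around Ifngr1 on chromosome 10, 7 of 10 neighbours were past the threshold on the negative side and 1 on the positive side in the authors' deposited table. They included the adjacent Tnfaip3, an inhibitor of NF-kappaB signalling, at -2.07 (SE 0.33), Perp, a target of p53, at -2.33 (SE 0.26), and Map3k5, a stress-activated kinase gene, at -1.27 (SE 0.21) in the authors' deposited table. Map7, 4 genes away from Ifngr1, passed on the positive side at 0.32.

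**Figure D5:**
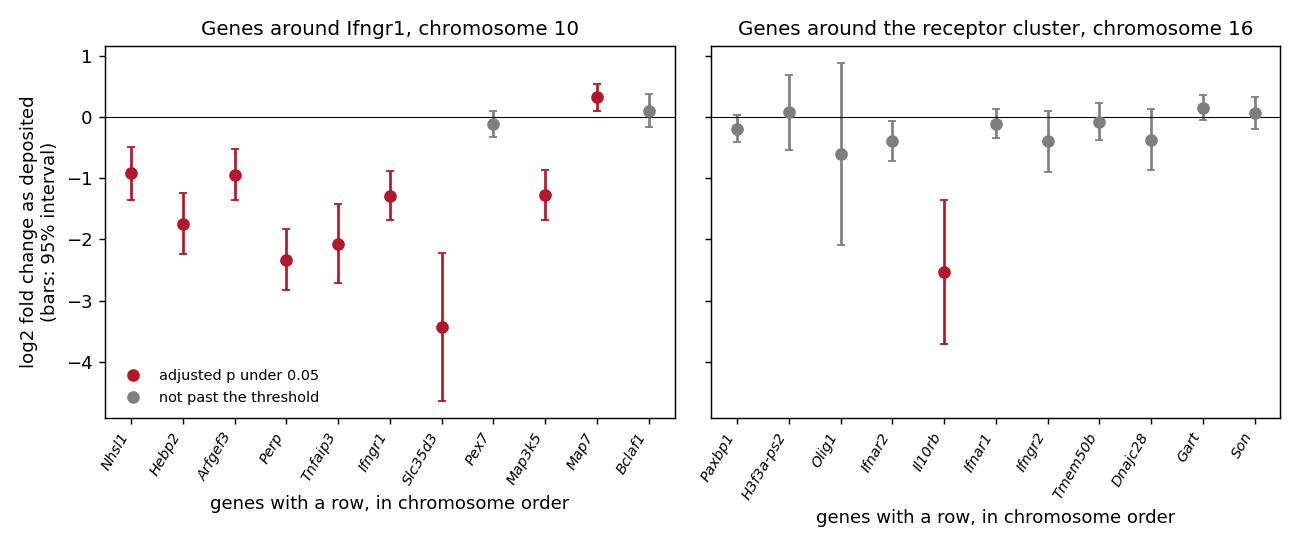
Log2 fold change as deposited (points) with the 95% interval (bars) for the 5 genes on either side of Ifngr1 (left) and of Ifnar1 (right), in chromosome order and not to scale in distance. On the left, 7 neighbours of Ifngr1 passed on the negative side (red), down to Slc35d3 at -3.43, and on the right only Il10rb passed, at -2.54.

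The neighbours of Irf1, Stat2 and Irf9 were counted in the same way, beside the same 15.9% negative and 14.6% positive over all genes. Of 10 neighbours of Irf1 on chromosome 11, 4 were past the threshold on the negative side and 0 on the positive side in the authors' deposited table, while the adjacent Rad50, a DNA repair gene, stood at 0.0044. For Stat2 on chromosome 10 the counts were 0 negative and 6 positive, and the adjacent Il23a, a cytokine subunit gene, was at 1.75 (SE 0.29) in the authors' deposited table. For Irf9 on chromosome 14, 2 of 10 passed on the negative side, which lies near the share of all genes. These were Psme1 and Psme2, which encode the interferon-inducible proteasome activator, at -0.98 and -1.53 with SE of 0.18 and 0.23 in the authors' deposited table. The counts of neighbours are descriptions, and no test was made of neighbourhood.

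Markers of the labelled and of other cell types also carried fold changes past the threshold. The counts below stand beside 15.9% of all genes on the negative side and 14.6% on the positive side. Embryonic stem cell markers were abundant, with mean counts up to 38163 for Dppa5a, followed by Pou5f1 at 32810 and Esrrb at 16352, and 6 of 9 with a row passed on the positive side in the authors' deposited table (median log2 fold change 0.73). Of 7 fibroblast markers with a row, 5 passed on the negative side in the authors' deposited table (median -1.95, mean counts from 10.1 to 1849), led in mean count by Tagln at a log2 fold change of -5.96, then by Pdgfrb at -0.54 and Acta2 at -1.95. Of 5 blood cell markers with a row, 4 passed on the positive side in the authors' deposited table, with mean counts up to 581.9, the most abundant being Laptm5 at 1.34, Cd68 at 0.91 and Cd3e at 2.45. The fibroblast markers Col3a1, Postn and Dcn and the blood cell markers Ptprc, Adgre1, Lyz2, Csf1r and Tyrobp were not analysed here. Summed levels per group could not be given without values per sample, and the part of these cell types in the fold changes of the interferon genes was not tested.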

How the data were processed

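Polyadenylated RNA of sorted mouse embryonic stem cells was sequenced as paired ends on a DNBSEQ instrument, per the labels' protocols. The submitters' processing notes name FastQC 0.12.1, Trimmomatic 0.39, STAR 2.7.11b, RSEM 1.3.3, DESeq2 1.45.3 and the build GRCm39, without roles. The authors deposited a comparison table with, per the file headers, a mean normalized count as a signal pooled over libraries, a log2 fold change with its standard error, a statistic, a p-value and an adjusted p-value. The statistic, a score as deposited, was within 5.77e-07 of the ratio of fold change to standard error. The model formula, the filter and the reference group are not given in the sources used here. The 6 columns of the count table carry run and barcode numbers that match no label and were not used. For that reason edgeR, planned for counts per sample, was not run. Depth per column was not examined.

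Values were taken as deposited. Intervals of 95% came from the normal distribution with the deposited standard error (scipy 1.17.1), and alternatives repeated the Wald test and the Benjamini-Hochberg adjustment. The calls, but not the intervals, were tested on simulated data. The simulated noise was drawn from the deposited standard errors, so that test cannot show whether those errors fit the libraries. Lengths and overlaps came from GENCODE M21, and neighbours and promoters from RefSeq on GRCm38.p6, whose build differs from that in the notes. Some genes of the lists are not reported here. Named genes were all members and the Janus kinase, Stat and Irf genes. Up to 6 called genes of smallest p-value in each further list and the 3 most abundant markers of each cell type were also named. Neighbours, overlapping genes, the remaining positive type I targets and Rigi were added after their values were seen. The members and lists were chosen with earlier results of these data known. The samples were collected on different dates per the labels. Without the model formula, whether the deposited p-values include the spread between dates is not known.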

Additional observations from a re-analysis of the deposited data

How the results depend on the processing

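Alternatives were a stricter adjusted p-value or fold limit, a minimum mean count of 50, a repeated adjustment, and centring on all genes or on the ribosomal protein genes. Fits per sample (leaving out replicates, other normalizations and count filters, edgeR) were not run, because the count columns match no sample. No paired analysis was possible because none of the count columns can be tied to a replicate. The negative calls among the 8 genes ranged from 2 to 4, and 54 of 55 values of single members kept direction and call. Much of this agreement was fixed in advance. Direction could change only under centring, since the other alternatives kept the deposited fold changes. The stricter limits could not add a call. Ifnar2 gained a call after ribosomal centring at -0.49 (adjusted p-value 0.0139, others between 0.0505 and 0.0577).

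With fewer than 10 genes in most lists, small counts moved. At a mean count of 50 the negative calls became 0 for the related receptors, 1 for the Irf family and 4 for the type I targets, as genes left the table. Positive Janus kinase calls became 1 at an adjusted p-value of 0.01, at a fold limit of 0.5 and after ribosomal centring, and 0 at a limit of 1. Negative ones became 1 under both fold limits and at 0.01. Positive Stat calls became 1 at a fold limit of 0.5 and 0 at 1, and positive Irf calls 0 at 1. Among negative regulators, positive calls became 1 at 0.5, 0 at 1 and 1 after ribosomal centring, and negative calls 3 at 0.5 and 2 at 1. Stricter limits lower counts by construction. The cause of the changes under ribosomal centring was not tested. With the 250 bases before the start alone, TTCNNNGAA matched 3 genes, its wider form 2 and the response element core 2. A low mean count limits precision most for Irf2.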
